A study of Mus musculus with 2 samples.

Results

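Ly6c2 monocytes of TSA tumors were chosen by their counts, as cells with 2 or more unique molecular identifiers (UMIs, each marking 1 captured RNA molecule) of Ly6c2 and at least 1 UMI of Plac8, Hp, Chil3 or Thbs1. Cells with any UMI of Cd3e or Ncr1, with more than 1 UMI of Xcr1 and Clec9a together, or with 0.2% or more of their UMIs in the complement genes C1qa, C1qb and C1qc were left out. The rule took 422 of 6198 cells, 198 of 2922 in the untreated library and 224 of 3276 in the NAM library. The genes of the rule are therefore a description of these cells and not a finding. TSA, a mammary adenocarcinoma line derived from Balb/c mice, was grown under the skin, and CD45+ cells (leukocytes) were isolated from the tumors with magnetic beads. The untreated group carried the same tumors without the drug. The NAM group was given nicotinamide (NAM), a vitamin B3 compound, as 0.5% of the drinking water for 10 days, starting when tumors had reached 0.25 cm2. In both groups the tumors of 3 mice were pooled before isolation and gave 1 library, so no difference below has a replicate check, and an effect of NAM and a difference between libraries cannot be told apart. No test was made, cells were not treated as replicates, and all intervals are exact 95% intervals that cover counting error only.

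Classical monocytes leave the bone marrow through the chemokine receptor Ccr2, carry the surface protein Ly6C, and enter inflamed tissue and tumors. There they lose Ly6C and can become macrophages, which make complement C1q, or cells that present antigen on MHC class II. Interferon gamma raises MHC class II and a set of GTPases and regulators in these cells, while toll-like receptors and NF-kB drive their inflammatory cytokines and chemokines.

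Promoters of 5 genes are shown as examples with a motif match, from the groups that differed between the libraries: H2-Aa and H2-Eb1 (MHC class II chains), Irf1 and Socs1 (interferon gamma response), and Cxcl1 (inflammatory chemokines). Each sequence runs from 250 bases before to 50 bases after the gene's start in RefSeq on GRCm38.p6, is written 5′ to 3′ along the gene, and has matches to short motifs in capitals.
H2-Aa, chr17:34287774-34288073, minus strand: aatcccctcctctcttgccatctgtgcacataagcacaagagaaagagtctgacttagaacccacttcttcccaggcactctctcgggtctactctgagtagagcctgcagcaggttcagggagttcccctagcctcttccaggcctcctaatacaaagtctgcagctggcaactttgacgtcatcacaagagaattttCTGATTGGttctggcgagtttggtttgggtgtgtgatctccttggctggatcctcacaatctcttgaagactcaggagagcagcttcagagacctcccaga
H2-Eb1, chr17:34305617-34305916, plus strand: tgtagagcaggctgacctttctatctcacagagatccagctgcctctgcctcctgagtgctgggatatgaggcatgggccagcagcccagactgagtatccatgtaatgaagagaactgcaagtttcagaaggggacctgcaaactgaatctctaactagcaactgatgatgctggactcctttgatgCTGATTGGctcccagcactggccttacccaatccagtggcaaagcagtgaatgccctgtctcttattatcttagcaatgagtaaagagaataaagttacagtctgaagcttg
Irf1, chr11:53769764-53770063, plus strand: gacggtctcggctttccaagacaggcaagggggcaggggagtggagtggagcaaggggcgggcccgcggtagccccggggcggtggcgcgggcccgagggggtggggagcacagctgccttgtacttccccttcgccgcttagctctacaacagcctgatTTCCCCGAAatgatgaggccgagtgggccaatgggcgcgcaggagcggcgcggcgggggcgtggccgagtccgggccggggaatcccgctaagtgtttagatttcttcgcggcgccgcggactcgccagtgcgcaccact
Socs1, chr16:10785487-10785786, minus strand: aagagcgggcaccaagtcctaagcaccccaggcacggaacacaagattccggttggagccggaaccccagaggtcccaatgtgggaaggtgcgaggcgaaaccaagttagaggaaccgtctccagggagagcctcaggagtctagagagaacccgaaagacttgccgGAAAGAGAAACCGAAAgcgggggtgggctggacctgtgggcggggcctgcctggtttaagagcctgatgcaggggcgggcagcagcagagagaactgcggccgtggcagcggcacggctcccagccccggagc
Cxcl1, chr5:90890995-90891294, plus strand: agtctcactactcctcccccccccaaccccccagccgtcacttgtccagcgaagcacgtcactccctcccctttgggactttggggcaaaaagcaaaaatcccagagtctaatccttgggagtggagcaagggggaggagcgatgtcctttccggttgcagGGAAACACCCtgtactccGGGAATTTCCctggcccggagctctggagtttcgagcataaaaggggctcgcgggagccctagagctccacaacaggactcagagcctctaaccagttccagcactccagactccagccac
Capitals mark the Y box CTGATTGG of MHC class II promoters in H2-Aa and H2-Eb1, the gamma-activated motif TTCNNNGAA in Irf1, 2 overlapping matches to the interferon-stimulated motif (GAAA, any 2 bases, GAAA) in Socs1, and 2 matches to the NF-kB motif (GGG, any 2 bases, TTTCC) in Cxcl1, 1 on each strand. Both strands were searched for all 4 motifs in every window. The Y box stood in 4.10% of 32851 RefSeq promoter windows of this length, TTCNNNGAA in 8.30%, the interferon-stimulated motif in 3.44% and the NF-kB motif in 1.63%. Among listed genes with 50 or more UMIs and a window in the table, the Y box stood in 2 of 5 MHC class II genes, TTCNNNGAA in 6 and the interferon-stimulated motif in 11 of 20 interferon gamma genes, and the NF-kB motif in 8 of 18 inflammatory genes. A gene counted if any of its windows held the motif, while the percentages above are of single windows. The Y box also stood in 2 of the interferon gamma and 1 of the inflammatory genes. The NF-kB motif stood in 4 of the interferon gamma genes and 0 of the MHC class II genes. TTCNNNGAA stood in 1 MHC class II gene and 0 inflammatory genes, and the interferon-stimulated motif in 0 genes of both lists. A match describes the letters of the window and not a bound factor.

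Members were described first by the values that chose them. Ly6c2, which encodes the Ly6C2 surface protein (GRCm38 chromosome 15, 75108158 to 75111970, minus strand), had a median of 15 UMIs per member in the untreated library (range 2 to 146) and 11 in the NAM library (2 to 99). Plac8, a small cysteine-rich protein of myeloid cells, accompanied Ly6c2 in 193 of 198 and 218 of 224 members. Thbs1 (thrombospondin 1) was found in 89 and 118, Hp (haptoglobin) in 48 and 61, and Chil3 (the chitinase-like protein Ym1) in 20 and 28. Only 1 of these 4 genes was seen in 97 untreated and 95 NAM members, and all 4 in 5 and 12. Near the Ly6c2 threshold, 10 and 18 members had exactly 2 Ly6c2 UMIs, and 30 cells in each library met the rest of the rule with 1. Near the C1q threshold, 6 and 4 members had a C1q share of 0.15% to 0.2%, against 4 and 7 cells just outside it at 0.2% to 0.25%. No C1q UMI at all was seen in 20 and 22 members. The plot of Ly6c2 level against C1q share shows the 2 sides of that threshold cell by cell.

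**Figure D1:**
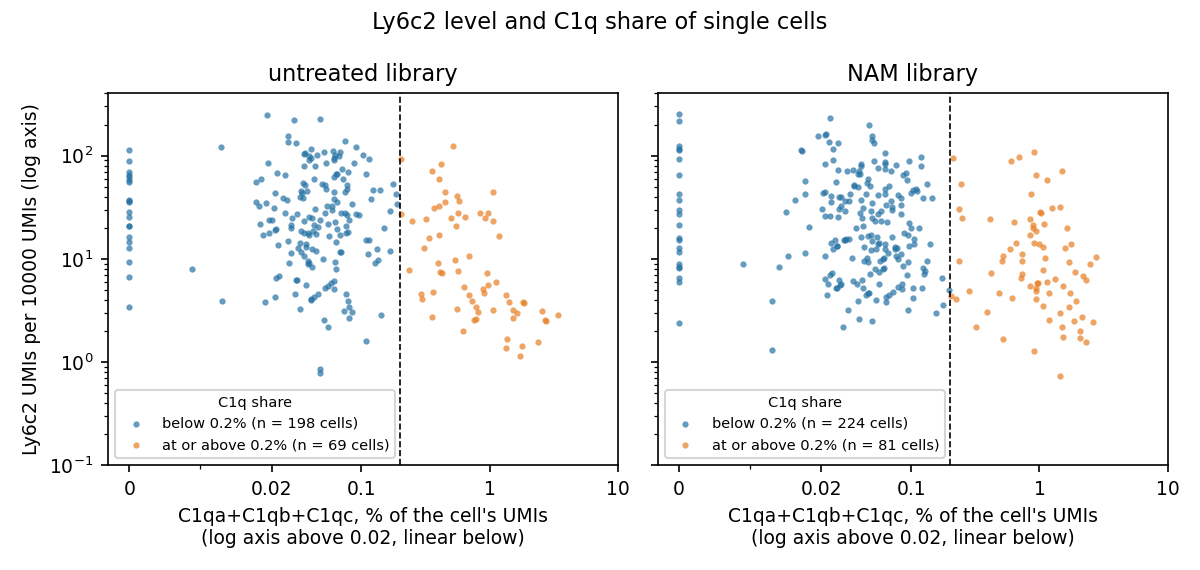
Each point is 1 cell of the untreated (left) or NAM (right) library. The x axis gives the share of the cell's UMIs in C1qa, C1qb and C1qc (linear below 0.02%, log above), the y axis Ly6c2 UMIs per 10000 UMIs (log), and the dashed line the 0.2% threshold that divides the 198 and 224 monocytes from the 69 and 81 cells with more C1q.

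The share of monocytes was close in both libraries, at 6.78% of cells (95% Clopper-Pearson interval 5.89 to 7.75) without and 6.84% (6.00 to 7.76) with NAM. The log2 ratio of these shares, NAM over untreated, was 0.01 (interval -0.27 to 0.30). Summed over members, UMIs came to 1365810 without and 1303762 with NAM, with medians of 5875 and 5114 per cell and of 1857 and 1657 genes. Their median mitochondrial share was 1.59% and 1.76%. The NAM members were thus shallower, and shares of cells with a UMI are given below also after each cell was thinned to 3000 UMIs.

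The label was checked on genes that the rule did not use, leaving its genes out of each list. Ifitm6, an interferon-induced membrane protein of monocytes, had a UMI in 40.9% (interval 34.0 to 48.1) and 41.1% (34.6 to 47.8) of members, and in 29.3% and 33.0% after thinning. In cells with 2 or more Cd3e UMIs (T cells, median 4656 and 4497 UMIs), which should lack it, the shares were 0.60% and 0 of 238 (upper limit 1.54%), the same after thinning. Taken over 16 classical monocyte genes, members held 21354 CPM (counts per 1000000 UMIs) without and 23837 CPM with NAM, against 18601 and 18216 CPM in 1753 and 1931 macrophages, here cells without Ly6c2 and with a C1q share of 0.2% or more. Of the neutrophil list, Ly6g, Retnlg, Camp and Ngp were at 0 UMIs in both libraries, and the 11 genes summed to 89.3 and 87.4 CPM. Without the C1q genes, 21 macrophage genes summed to 10801 and 11223 CPM in members, against 27599 and 26764 CPM in the macrophages, which a high C1q share had chosen. Lymphoid and mast cell lists were near 0, at 28.6 and 39.1 CPM for T cell genes, 16.1 and 6.14 for B and plasma cell genes, and 2.20 and 3.84 for mast cell and basophil genes. Dendritic cell genes were present in most members: the 14 genes of monocyte-derived and conventional type 2 dendritic cells summed to 646 and 525 CPM, against 214 and 199 CPM in macrophages, and 127 of 198 and 132 of 224 members had 2 or more UMIs of them. The 10 plasmacytoid dendritic cell genes summed to 778 and 617 CPM, against 457 and 463 CPM in macrophages, with 2 or more UMIs in 146 and 139 members. Of their 1062 and 804 UMIs, 924 and 729 were of Bst2, an interferon-induced gene, and Siglech had 10 and 0. Of Cd209a, Clec10a, Ccr7 and Siglech alone, 13 untreated and 9 NAM members had 2 or more UMIs. In 1 NAM member 61.7% of UMIs were haemoglobin (6997 of the 7064 haemoglobin UMIs of all NAM members), against 26 haemoglobin UMIs over all untreated members. The libraries shared 11 cell barcodes, 1 of which belonged to a member in the untreated and 1 to a member in the NAM library.

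The first comparison asked what set these monocytes apart from cells that met the same rule but had a C1q share of 0.2% or more, called C1q-high cells here (69 untreated and 81 NAM cells, median 7868 and 8598 UMIs). Because the cells were divided on C1q, and macrophage genes go with C1q, the differences describe the division and carry no test. Among 3747 genes with at least 50 UMIs in each library, 60 (1.6%) were past 2-fold higher in monocytes in both libraries and 35 (0.934%) were past 2-fold lower. Of 18 classical monocyte genes with enough counts, 12 were past 2-fold higher and 0 lower, and without genes of the rule 8 of 14 were. Of 22 macrophage genes, 8 were past 2-fold lower and 1 was higher, and without the C1q genes 5 of 19 were lower.

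On the higher side, Vcan, a matrix proteoglycan of classical monocytes, stood at 57.1 CPM in untreated monocytes and 13.9 CPM in untreated C1q-high cells, a log2 ratio of 1.97 (interval 1.04 to 3.22), and at 58.3 and 10.2 CPM in the NAM library (2.44, 1.47 to 3.78). F10 (coagulation factor X) differed by log2 ratios of 2.93 and 2.35, and Ifitm6 by 2.48 and 2.41. The secreted protease inhibitor Slpi was higher by 2.56 and 3.97, the chemokine Cxcl3 by 2.43 and 3.26, and Inhba, the activin A subunit, by 1.88 and 2.55. Ltb4r1, the leukotriene B4 receptor, was higher by 2.16 and 1.92, and the chemokine Ccl24 by 2.24 and 1.93. Agreement between the libraries is part of how these genes were chosen. Dmkn (1.97 and 3.31) and Cdc42ep2 (1.83 and 2.43) were also named by the rule, as was Hbb-bs, whose UMIs in the NAM library come from the haemoglobin-rich cell described above.

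On the lower side, Ccl8, a monocyte-attracting chemokine, stood at 264 CPM in untreated monocytes against 1487 CPM in C1q-high cells (log2 ratio -2.49, interval -2.67 to -2.32), and at 265 against 1880 CPM with NAM (-2.83, -3.00 to -2.66). Cd81, a tetraspanin, had log2 ratios of -2.39 and -1.75. The selenium carrier Sepp1 had -1.62 and -1.51, the adhesion molecule Vcam1 -1.43 and -1.91, the protease inhibitor Timp2 -1.44 and -1.90, and Igfbp4, a binder of insulin-like growth factors, -1.58 and -1.94. Dnase1l3, which digests DNA of dying cells, had -2.09 and -1.72. Zmynd15 (-1.94 and -2.09), 2810417H13Rik (-1.95 and -1.77), Dut (-2.01 and -1.75), Cpq (-1.76 and -1.66) and Gna12 (-1.51 and -1.67) completed the 12 genes. Of these, Dut makes the precursor of dTTP for DNA synthesis.

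Along the C1q share several levels also differed between bins on the same side of the threshold, as the plot of levels along the C1q share shows. Cells were divided into shares of 0 to 0.05%, 0.05 to 0.2%, 0.2 to 1% and 1% or more, which held 116, 82, 48 and 21 untreated cells and 131, 93, 43 and 38 NAM cells. Apoe, a lipid carrier of macrophages, stood at 3654, 3787, 6842 and 14710 CPM without NAM and at 4144, 4875, 8654 and 13740 CPM with it. Without NAM the monocyte bins were thus nearly level in Apoe. With NAM the second stood above the first (intervals 4003 to 4289 and 4687 to 5068), and the C1q-high bins were level in neither library. Ccr2 declined over the 4 bins, from 473 to 243 CPM without and from 627 to 297 CPM with NAM. Il1b (interleukin-1 beta) stood at 6228, 6556, 4184 and 2692 CPM without NAM and at 5576, 6667, 4134 and 2734 CPM with it, so its level was lowest at the highest C1q share in both libraries. H2-Aa did not follow this order: it stood at 7308, 7328, 9265 and 9083 CPM without NAM and was higher in every bin with NAM, at 9121, 12109, 13417 and 10883 CPM.

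**Figure D2:**
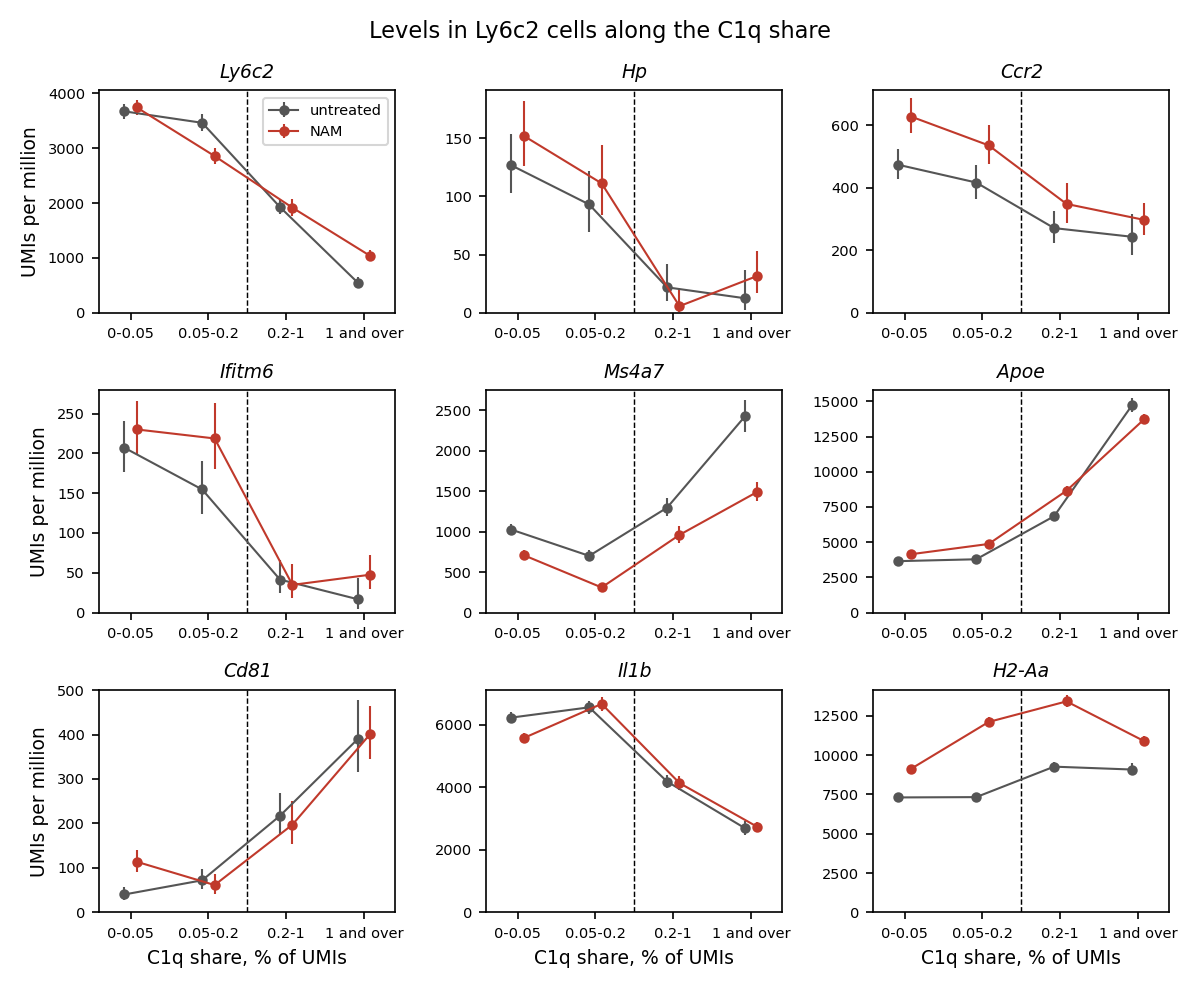
Level of 9 genes (CPM, linear axes from 0) in Ly6c2 cells grouped by the C1q share of their UMIs, in the untreated (grey) and NAM (red) libraries. Bars are exact 95% Poisson intervals and the dashed line marks 0.2%: Hp and Ifitm6 were low to its right, Apoe and Cd81 were high there, and Ly6c2 was lowest at 1% and over, at 549 and 1036 CPM.

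The second comparison asked how the monocytes of the NAM library differed from those of the untreated library. Of 4557 genes with at least 50 UMIs over the 422 cells, 198 (4.34%) were past 1.5-fold higher with NAM and 389 (8.54%) past 1.5-fold lower, and the median log2 ratio was -0.04. With no minimum beyond 1 UMI the counts were 2104 and 3128, and with cells thinned to 3000 UMIs 2867 genes reached 50 UMIs, of which 165 (5.76%) were past it higher and 244 (8.51%) lower. No test stands behind these counts. In the monocytes with NAM, MHC class II genes and part of the interferon gamma response were higher, the type I interferon response was near level, and several inflammatory cytokines and heat shock genes were lower.

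**Figure D3:**
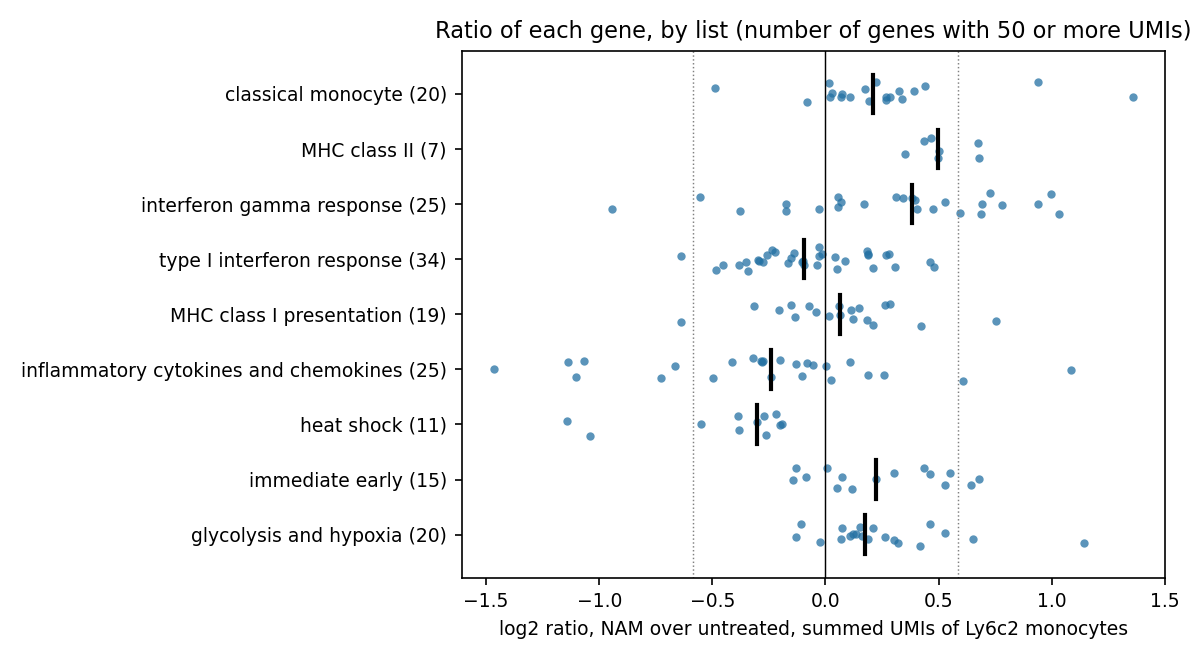
Log2 ratio of NAM over untreated for each gene (points) of 9 lists in the summed UMIs of Ly6c2 monocytes, with the number of genes in brackets, the list median as a black bar and dotted lines at 1.5-fold either way. All 7 MHC class II genes lie right of 0 and all 11 heat shock genes left of it, while the 34 type I interferon genes lie on both sides around -0.10.

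All 7 MHC class II genes with enough counts were higher in NAM monocytes with intervals above 0 (background 9.5%), and their median log2 ratio was 0.50 against -0.04 over all genes, with 2 past 1.5-fold (background 4.34%) and 0 lower (8.54%). H2-Aa, the alpha chain of I-A, stood at 7317 CPM (interval 7174 to 7461) without and 10316 CPM (10142 to 10491) with NAM, a log2 ratio of 0.50 (0.46 to 0.53). H2-Eb1, the beta chain of I-E, stood at 3599 and 5094 CPM (0.50, 0.45 to 0.55). The Y boxes shown above lie 51 bases before the start of H2-Aa and 62 before that of H2-Eb1. H2-Ab1 had a ratio of 0.47 and Cd74, the invariant chain, of 0.35. H2-DMb1 and H2-DMb2, subunits of the peptide editor H2-DM, stood at 739 and 344 CPM without and 1184 and 550 CPM with NAM (both 0.68), and were under 1.5-fold with a Ly6c2 minimum of 5 UMIs (0.52 and 0.53). H2-DMa had a ratio of 0.43. The list median was 0.43 in C1q-high cells, 0.42 in macrophages and -0.51 in T cells. It depended on the member rule: among members with at least 2 of the 4 accompanying genes the median was 0.17.

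MHC class II also divided the monocytes among themselves, as the plot of their MHC class II shares shows. The share of a cell's UMIs in these genes ran from 0.0169% to 13.5% (median 2.99%) without and from 0.0672% to 16.3% (median 4.25%) with NAM. A line at 1%, chosen after these values were seen, left 70 of 198 untreated members (35.4%, Clopper-Pearson interval 28.7 to 42.4) and 68 of 224 NAM members (30.4%, 24.4 to 36.8) below it. The intervals of these shares overlap. They cover counting error only, and a difference between the groups in the number of MHC class II-low cells was not tested. The sides are ranges of a score and not cell types, and 28 and 38 members lay near the line, between 0.5% and 2%. On the high side the median share was 5.23% without and 6.40% with NAM, and on the low side 0.233% and 0.270%.

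**Figure D4:**
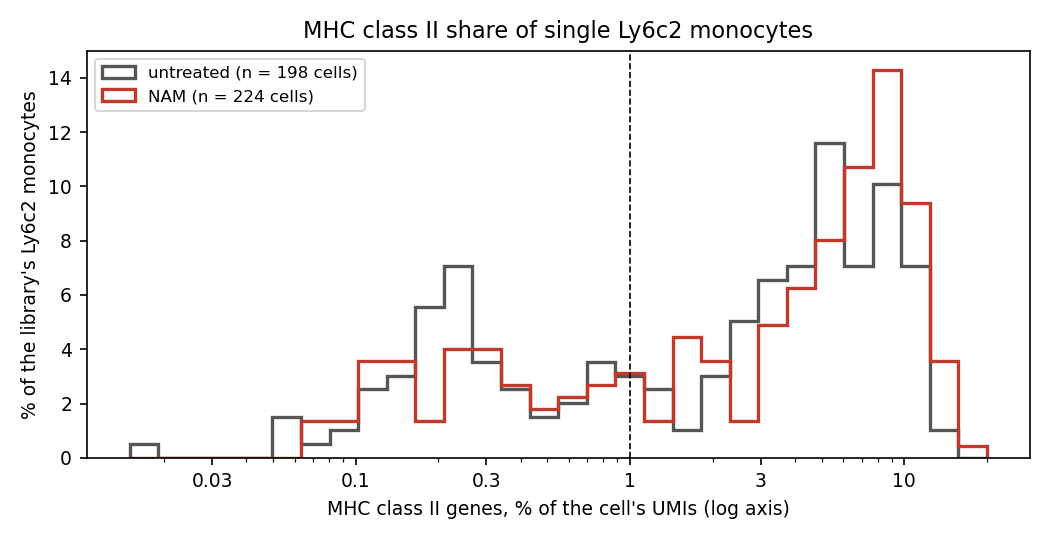
Distribution of the MHC class II share (11 genes, % of the cell's UMIs, log axis) over Ly6c2 monocytes of the untreated (grey, 198 cells) and NAM (red, 224 cells) libraries, as the percentage of each library's monocytes per bin. Both libraries show a low and a high group of cells on the 2 sides of the dashed line at 1%, with 35.4% and 30.4% of cells below it.

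Several genes were higher in MHC class II-low than in high members of both libraries, and the lists they belong to were compared by their share of UMIs. Without genes of the rule, the classical monocyte list took a median of 2.15% in low and 2.04% in high members without NAM and 2.78% and 2.03% with it. The macrophage list took 0.989% and 0.728% without NAM and 0.772% and 0.821% with it, so its order differed between the libraries. Chil3, like Thbs1 a gene of the rule and given as a description, stood at 73.9 CPM in low and 10.1 CPM in high members without NAM (log2 ratio 2.82, interval 1.79 to 4.12), and at 121 and 39.4 CPM with NAM (1.61, 0.95 to 2.29). Ifitm6 (1.25 and 1.35), Thbs1 (1.08 and 1.54) and Fn1, the matrix protein fibronectin (1.14 and 1.73), had the same order, as did Il10 at 101 against 30.3 CPM without NAM and 41.2 against 6.39 with it. The macrophage genes Pf4 (1.30 and 3.24), Ms4a7 (1.14 and 0.98) and Spp1 (0.74 and 2.03) were also higher on the low side. Apoe (0.00118 and -0.26), also a macrophage gene, did not keep that order. With NAM, 1 member held 126 of the 367 Pf4 UMIs of the low side, against 100 UMIs on the high side. Mmp12 had -1.69 without NAM, and with NAM 1 member held 111 of the 126 UMIs of the low side, against 82 UMIs on the high side. The monocyte genes Ccr2 (-0.14 and -0.12) and Ly6c1 (-0.42 and 0.06) were not higher on the low side in both. Members above the line had more Il1r2, a decoy receptor of interleukin-1, with log2 ratios low over high of -1.94 and -2.26. They also had more Ifitm1 (-1.84 and -2.68), Slamf8 (-1.68 and -1.79) and Cxcl9 (-1.45 and -1.90). Agreement between the libraries is part of how Chil3, Ifitm6, Thbs1, Fn1, Pf4, Ms4a7 and the genes of the high side were chosen. Ccr7 had 2 UMIs on the low and 78 on the high side without NAM, 41 of them in 1 member, and 3 and 25 UMIs with NAM, where the interval of its ratio (-4.06 to 0.02) includes 0. Ly6c2 itself differed less between the sides: it stood at 3054 and 3862 CPM without NAM and 3339 and 3404 CPM with it. Low members were shallower, with medians of 5363 and 4722 UMIs against 6476 and 5398.

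The interferon gamma list had a median log2 ratio of 0.38 over 25 genes, with 8 past 1.5-fold higher and 1 lower (backgrounds 4.34% and 8.54%). Irf1 (GRCm38 chromosome 11, 53770014 to 53778374, plus strand), a transcription factor that interferon gamma induces, stood at 116 CPM (interval 99.0 to 136) without and 200.2 CPM (177 to 226) with NAM, a log2 ratio of 0.78 (0.49 to 1.08). The TTCNNNGAA match of its promoter starts 90 bases before the gene. Socs1, which shuts off JAK signaling, stood at 71.0 CPM (57.6 to 86.6) and 146 CPM (126 to 168), a ratio of 1.03 (0.68 to 1.41). The GTPases Iigp1 and Gbp4 had ratios of 1.00 (0.62 to 1.39) and 0.73 (0.46 to 1.00), the long RNA AW112010 0.94 (0.82 to 1.06; 0.51 with the rule applied to thinned cells), Il18bp, a trap of interleukin-18, 0.69, Slamf8 0.69 and Ly6a 0.60. The kinase gene Jak2 was past 1.5-fold lower, at -0.94 (-1.57 to -0.36). Of the chemokines that draw CXCR3-bearing T cells, Cxcl9 stood at 312 CPM without and 240 CPM with NAM (-0.38, -0.59 to -0.16) and Cxcl10 at 606 and 594 CPM (-0.03, -0.17 to 0.12). Cxcl10 rested on few cells: the highest untreated member held 163 of 827 UMIs, and without the 5 highest members of each library its ratio was 0.66. The list was also higher in C1q-high cells (median 0.52) and macrophages (0.44), and near level in T cells (0.07). Cxcl9 had ratios of 0.77 in C1q-high cells and 0.57 in macrophages, on the other side of 0 from the monocytes. The share of members with a Cxcl9 UMI was not lower with NAM, at 28.8% and 29.9% (19.7% and 23.7% after thinning). It was 47.8% and 59.3% in C1q-high cells and 38.6% and 54.0% in macrophages. As the mean of per-cell CPM the monocyte ratio was -0.16.

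Of the Ifitm family, which blocks viral entry at membranes, Ifitm1 differed most, at 513 CPM (476 to 553) without and 1011 CPM (957 to 1067) with NAM, a ratio of 0.98 (0.84 to 1.11). It was seen in 43.9% (interval 36.9 to 51.2) and 54.5% (47.7 to 61.1) of members and in 36.9% and 46.0% after thinning, against 8.98% and 8.82% of T cells (8.38% and 7.14% after thinning). The Ifitm1 share was also higher with NAM in C1q-high cells, at 40.6% and 60.5% (26.1% and 46.9% after thinning), and in macrophages, at 20.7% and 28.9% (9.47% and 15.0%). In MHC class II-high members the ratio was 0.95 (0.81 to 1.09), and in low members it was 0.12 (-0.35 to 0.57). AW112010 had 1.13 (1.00 to 1.26) in high and -0.21 (-0.49 to 0.07) in low members. Ifitm2, Ifitm3 and Ifitm6 had ratios of 0.27, 0.18 and 0.28.

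The type I interferon list had a median of -0.10 over 34 genes, with 0 past 1.5-fold higher and 1 (Oasl1, a sensor-linked antiviral protein, -0.64) past it lower (backgrounds 4.34% and 8.54%). Isg15, the ubiquitin-like antiviral protein, stood at 1593 CPM without and 1552 CPM with NAM (-0.04, -0.13 to 0.05). Per cell, the list took a median of 1.46% of UMIs without and 1.41% with NAM, with ranges of 0.12% to 6.54% and 0.12% to 9.04%. MHC class I presentation had a median of 0.07 over 19 genes, with H2-D1, a class I heavy chain, at 6944 and 8344 CPM (0.27, 0.23 to 0.30). Of these 19, 1 was past 1.5-fold higher (H2-Q6, 0.75) and 1 lower (the chaperone gene Calr, -0.64), against backgrounds of 4.34% and 8.54%.

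Inflammatory cytokines and chemokines had a median of -0.24 over 25 genes, with 6 past 1.5-fold lower and 2 higher (backgrounds 8.54% and 4.34%), and intervals below 0 for 15 (background 13.5%). Il1a (interleukin-1 alpha) stood at 346 CPM (316 to 379) without and 125 CPM (107 to 146) with NAM, a ratio of -1.47 (-1.74 to -1.21). The neutrophil attractant Cxcl1, whose promoter holds NF-kB matches 89 and 71 bases before its start, stood at 1305 CPM (1245 to 1367) and 607 CPM (566 to 651), a ratio of -1.10 (-1.23 to -0.98). Among MHC class II-low members Cxcl1 was level, at 0.04 (-0.14 to 0.23), and among high members it was -1.87 (-2.04 to -1.70). Il6 (-1.14), Ccl3 (-1.07), Il1rn, the interleukin-1 receptor antagonist (-0.73), and Ptgs2, the cyclooxygenase COX-2 (-0.66), were the other 4 genes past 1.5-fold lower. Il6 counted 49 and 21 UMIs, and 1 untreated member held 153 of the 736 UMIs of Ccl3, whose ratio was -1.87 with at least 2 accompanying genes. The most abundant cytokines differed less: Il1b stood at 6365 and 6012 CPM (-0.08) and Cxcl2 at 6596 and 5439 CPM (-0.28), while Tnf was at -0.06 (-0.32 to 0.21). Ccl5, a T cell attractant, was higher, at 638 and 1356 CPM (1.09, 0.97 to 1.21), but 0.58 with a Ly6c2 minimum of 1 UMI. The share of members with a Ccl5 UMI differed little, at 39.4% and 42.4% (31.8% and 34.4% after thinning), against 64.1% and 63.0% of T cells (58.1% and 55.5%). In MHC class II-low members it stood at 241 CPM without and 1180 CPM with NAM, and in high members at 849 and 1425 CPM. Ccl7 was also past 1.5-fold higher (0.61), but 1 NAM member held 154 of its 855 UMIs and its ratio was 0.21 without the 5 highest members and -0.33 with at least 2 accompanying genes.

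The 17 genes of immune regulation and suppression had a median of 0.18, with 1 past 1.5-fold higher and 3 lower (backgrounds 4.34% and 8.54%) and 3 intervals on each side of 0 (backgrounds 9.5% above and 13.5% below). The lower genes were Il10, Il1rn and Ptgs2. Il10, a cytokine that restrains macrophages, stood at 54.9 CPM (75 UMIs) without and 16.1 CPM (21 UMIs) with NAM, a ratio of -1.75 (-2.54 to -1.06), and was seen in 14.1% (interval 9.61 to 19.8) and 5.36% (2.80 to 9.17) of members, against 3.59% and 3.36% of T cells. After thinning, the shares were 10.6% and 3.57% of members and 3.59% and 1.68% of T cells. The Il10 share was also lower with NAM in C1q-high cells, at 23.2% and 8.64% (13.04% and 6.17% after thinning), and in macrophages, at 26.2% and 13.3% (13.9% and 6.37%). Without the 5 highest members of each library the monocyte ratio was -2.46.

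The named genes with the largest ratios are shown in the plot of levels in both libraries. Apart from the 4 haemoglobin genes, whose UMIs came from the 1 haemoglobin-rich NAM member, 7 genes of the higher side are given here. Hbb-bs, for example, had 15 UMIs without and 3205 with NAM, and Hbb-bt 0 and 440. Nfil3, a transcription factor of lymphoid and myeloid development, stood at 118 CPM (100.4 to 138) without and 272 CPM (245 to 302) with NAM (1.21, 0.94 to 1.49). Its UMIs were spread widely: 89 of 198 and 154 of 224 members had at least 1 (44.9% and 68.8%, or 29.8% and 52.2% after thinning), against 32.9% and 35.7% of T cells (18.0% and 24.8% after thinning). Mgst1, a membrane glutathione transferase, stood at 67.4 and 173 CPM (1.36, 1.01 to 1.73) and was seen in 29.3% and 42.4% of members (18.2% and 32.1% after thinning), against 1.80% and 0.42% of T cells (0.60% and 0.42% after thinning). Ddit4, a stress-induced inhibitor of mTORC1, stood at 37.3 and 95.9 CPM (1.35; 0.76 with the rule applied to thinned cells), Bambi, a decoy receptor of the TGF-beta family, at 30.8 and 78.2 CPM (1.34), and Smpdl3b, a membrane phosphodiesterase, at 24.9 and 57.5 CPM (1.20). With the rule applied to thinned cells Smpdl3b had 0.54. Tnfrsf9, the costimulatory receptor 4-1BB, stood at 13.2 and 62.9 CPM (2.22, 1.51 to 3.08), from 5.56% and 10.3% of members (3.03% and 6.25% after thinning). Its ratio was 1.43 with a C1q share below 0.5%. It was seen in 81.4% and 80.3% of T cells (74.3% and 76.5% after thinning). Mmp12, macrophage elastase, stood at 38.1 and 160 CPM (2.06), but 1 NAM member held 111 of 208 UMIs and the ratio without the 5 highest members of each library was 1.42, 1.07 with a Ly6c2 minimum of 5 UMIs and 2.87 with 1.

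**Figure D5:**
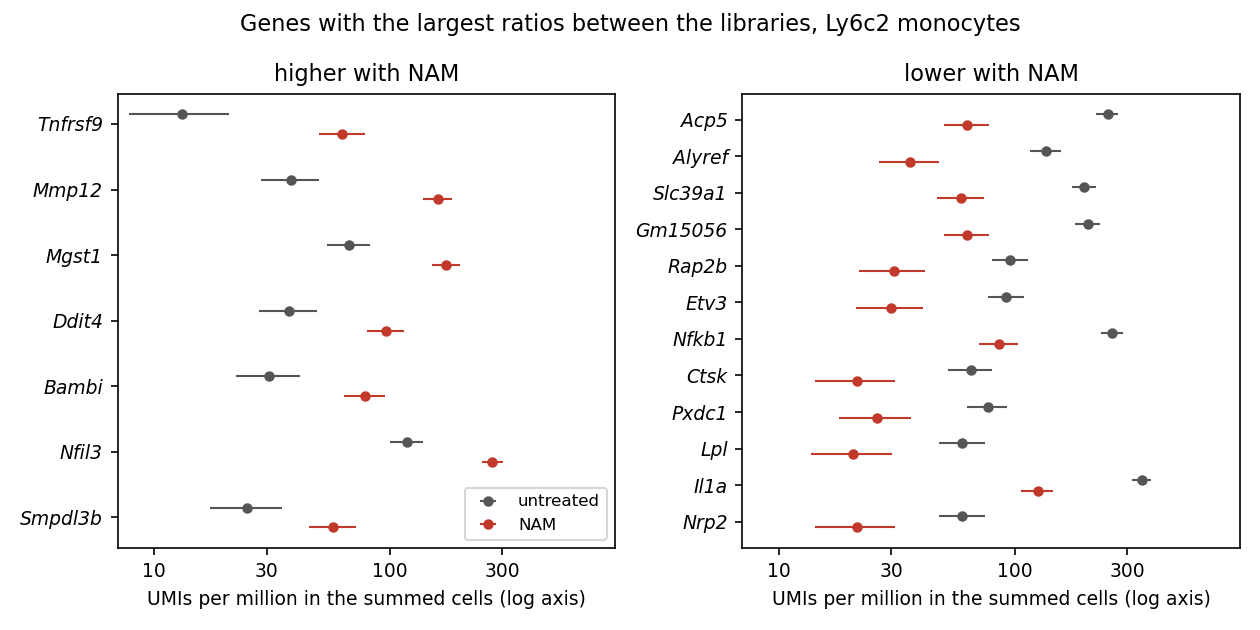
Level of the genes with the largest log2 ratios between the libraries (CPM in the summed Ly6c2 monocytes, log axis) without (grey) and with (red) NAM, haemoglobin genes left out. Bars are exact 95% Poisson intervals for counting error, which do not overlap between the libraries for any gene shown.

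On the lower side, Alyref, an adaptor of mRNA export, stood at 135 CPM (117 to 156) without and 36.1 CPM (26.5 to 47.9) with NAM, a ratio of -1.90 (-2.40 to -1.44), and was seen in 54.5% and 17.4% of members (31.3% and 10.3% after thinning), against 47.3% and 30.3% of T cells (34.1% and 18.1% after thinning). Nfkb1 (GRCm38 chromosome 3, 135584655 to 135691547, minus strand), which encodes the p105 precursor of NF-kB p50, stood at 259 CPM (233 to 288) and 85.9 CPM (70.7 to 103), a ratio of -1.59 (-1.91 to -1.28). The zinc transporter gene Slc39a1 had -1.73, the small GTPase gene Rap2b -1.63, the ETS repressor gene Etv3 -1.61 and the semaphorin receptor gene Nrp2 -1.47. The Rap2b ratio was -2.26 with at least 2 accompanying genes, the Etv3 ratio -2.67 with the rule applied to thinned cells, and that of Nrp2 -0.87 with a Ly6c2 minimum of 1 UMI. Several of these genes were lower with NAM in other cells too: in T cells Alyref had -1.02, Slc39a1 -1.22, Rap2b -1.92, Nfkb1 -0.70 and Etv3 -0.75, and in macrophages the values ran from -1.17 to -0.67. Actb, which encodes beta-actin and was chosen after its values were seen, showed the same: it stood at 18676 CPM without and 8142 CPM with NAM in monocytes (-1.20, -1.23 to -1.17) and at 12727 and 5482 CPM in T cells (-1.21). A difference between the libraries as a whole moved with these genes, and its part in the monocyte ratios was not tested.

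Other genes of the lower side came from few cells. Acp5, an acid phosphatase of macrophages and osteoclasts, stood at 247 and 62.9 CPM (-1.97), but 121 of its 338 untreated UMIs came from 1 member, and its ratio was -0.26 without the 5 highest members of each library and -0.03 without the deepest 5% of members. Ctsk (cathepsin K) had 52 of 89 untreated UMIs in 1 member and Lpl (lipoprotein lipase) 31 of 82. Lpl had a ratio of -1.52, and 0.29 among members with at least 2 accompanying genes. Ctsk had -1.58, and 0.0659 with a Ly6c2 minimum of 1 UMI. Gm15056 (-1.69) and Pxdc1 (-1.55) were seen in 14.6% and 10.6% of untreated members (9.60% and 6.06% after thinning) and in 12.1% and 6.25% of NAM members (8.04% and 4.46%). The Pxdc1 ratio was -0.85 with at least 2 accompanying genes. In T cells the shares were 0.60% and 2.99% without and 0.42% and 1.68% with NAM (0 of 167 and 2.40%, and 0.42% and 0.84%, after thinning). Dendritic cell genes had a median of -0.63 over 7, with 4 past 1.5-fold lower and 0 higher (backgrounds 8.54% and 4.34%). Clec10a (-2.31) and Ccr7 (-1.43) had 22 of 75 and 41 of 80 untreated UMIs in 1 member, and Cd209a (-0.83) and Tnip3 (-0.63) were the other 2.

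The classical monocyte list had a median log2 ratio of 0.21 over 20 genes, with 2 past 1.5-fold higher (Mgst1 and Chil3, the latter a gene of the rule) and 0 lower (backgrounds 4.34% and 8.54%). Without genes of the rule the median was 0.17 over 15 genes, with 1 past 1.5-fold higher and 0 lower. Ccr2 stood at 450 CPM (415 to 487) without and 591 CPM (550 to 634) with NAM (0.39, 0.24 to 0.55), Ly6c1 at 1756 and 1846 CPM (0.07) and Ms4a4c at 1816 and 1837 CPM (0.02). Plac8 (0.27), Thbs1 (0.44), Hp (0.27) and Ly6c2 (-0.08) chose the members and are given as a description. Of 21 growth factor receptors and lineage factors, 3 were past 1.5-fold higher and 1 lower (backgrounds 4.34% and 8.54%). Klf2 and Klf4, zinc finger factors of monocytes, joined Nfil3 at 1.10 (0.85 to 1.36) and 0.91 (0.67 to 1.16), and Zeb2 was the lower gene, at -0.63 (-0.86 to -0.41). The growth factor receptor gene Csf1r was near level, at 296 and 318 CPM (0.11, -0.10 to 0.31). Among receptors, Fcgr3, a low-affinity receptor of IgG, stood at 616 and 1016 CPM (0.72, 0.60 to 0.85; 0.56 with the rule applied to thinned cells), Tlr4 had 0.82 (0.12 to 1.58) from 27 and 46 UMIs, and the adhesion molecule gene Icam1 had -0.82 (-1.13 to -0.52).

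Macrophage genes differed in both directions within the monocytes, with 4 of 22 past 1.5-fold higher and 4 lower (backgrounds 4.34% and 8.54%). Ms4a7 stood at 890 CPM without and 550 CPM with NAM (-0.69, -0.83 to -0.56) and Spp1 (osteopontin) at 2188 and 1404 CPM (-0.64), while Cd63 had -0.80 and Vcam1 -0.76. The Spp1 ratio was -0.08 with at least 2 accompanying genes and -1.25 without the 5% of members with most UMIs. Pf4 (platelet factor 4) had 1.07 and Cd81 0.79, and Mmp12 is given above. Cd81 and Pf4 were higher with NAM only in the lower of the 2 C1q bins of members, 0 to 0.05%, at 40.2 and 114 CPM for Cd81 and 142 and 535 CPM for Pf4. From 0.05 to 0.2% they stood at 72.0 and 61.4 CPM and at 211 and 92.1 CPM. Pf4 rested on few cells, with 126 of 467 NAM UMIs in 1 member and a ratio of -0.11 without the 5 highest members of each library.

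Stress and metabolic genes were compared last. All 11 heat shock genes had ratios below 0, with a median of -0.30, intervals below 0 for 10 (background 13.5%) and 2 past 1.5-fold lower (background 8.54%), Hsph1 (-1.14, 63 and 27 UMIs) and Hspa1b (-1.04, 61 and 28 UMIs). The list median was -0.59 in C1q-high cells, -0.32 in macrophages and -0.21 in T cells, and among members with at least 2 accompanying genes it was -0.0572. Immediate early genes, which dissociation of tissue can induce, had a median of 0.23 over 15 genes, with 2, Btg2 (0.68) and Atf3 (0.64), past 1.5-fold higher (background 4.34%). Glycolysis and hypoxia genes had a median of 0.17 over 20, with intervals above 0 for 12 (background 9.5%) and below 0 for 0 (13.5%), and 2 past 1.5-fold higher (background 4.34%) and 0 lower (8.54%). These 2 were Egln3, an oxygen sensor, at 1.15 (0.52 to 1.82) and Bnip3, a mitophagy receptor, at 0.65 (0.41 to 0.90). Genes of NAD metabolism, the pathway that nicotinamide feeds, had a median of -0.08 over the 7 with enough counts. Nampt, which recycles nicotinamide, stood at 158 and 150 CPM (-0.08, -0.37 to 0.21), Parp14, which consumes NAD, at 60.0 and 91.3 CPM (0.60, 0.19 to 1.03), and Nnmt, which methylates nicotinamide, had 0 UMIs in both libraries.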

How the data were processed

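Single-cell RNA-seq (10x Single Cell 3′) was processed by the authors with Cell Ranger against mm10 and deposited as raw UMI counts for 27998 genes; the annotation version is not given in the sources used here. All deposited cells pass the study's filter (1000 genes, 3000 UMIs, at most 10% mitochondrial). No doublet caller was run.

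UMIs were summed over the members of each library and given as CPM with exact Poisson intervals, and log2 ratios used a pseudocount of 0.5 UMI and exact conditional binomial intervals (SciPy 1.17.1, NumPy 2.4.6, pandas 2.3.3, Python 3.11.15). Macrophages were cells without Ly6c2 and with a C1q share of 0.2% or more, and T cells had 2 or more Cd3e UMIs. Macrophages also had no UMI of Cd3e or Ncr1 and at most 1 UMI of Xcr1 and Clec9a together. T cells also had a C1q share below 0.2%. For shares after thinning, 3000 UMIs were drawn at random per cell and 0 cells were lost. The scripts were tested on simulated data.

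Named genes were the 12 highest and 12 lowest by log2 ratio of NAM over untreated among genes with 100 or more UMIs, with an interval leaving out 0 and a direction kept without the 5 highest cells of each library. Against C1q-high cells they were the 12 highest and 12 lowest by the smaller of both libraries' absolute ratios, in the same direction in both. Genes of the rule were excepted, and the study's 11 genes and genes of 31 lists (450 genes, 10 without a match) with 50 or more UMIs were added. The members and lists were chosen with earlier results of these data known. Gene positions come from GENCODE on GRCm38. Alternatives covered the member rule, scaling, thinning, count minimums and cells of other types. A few genes are not reported here.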

Additional observations from a re-analysis of the deposited data

Results flagged for a closer look

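Genes whose log2 ratio of NAM over untreated was past 1.5-fold in opposite directions in the Ly6c2 monocytes and in their C1q-high counterparts are listed here, and the difference between the populations was not tested, since each has 1 library per group. Ccl7 had 0.61 in monocytes and -1.13 in C1q-high cells, but its monocyte ratio was -0.33 with at least 2 accompanying genes. Ctsk (cathepsin K) had -1.58 and 2.48, with 52 of the 89 untreated monocyte UMIs in 1 cell. Herpud1, a gene of the endoplasmic reticulum stress response, had -0.88 and 0.93. Ccnd2, which encodes cyclin D2, had -0.64 and 0.66, and Avpi1 had -0.66 and 0.60.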

How the results depend on the processing

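No paired analysis was possible because each group has 1 library. Log2 ratios of 48 genes were followed under 15 alternatives each: of 720 values, 577 moved by less than their counting interval, 134 moved by more, and 9 values of 4 genes whose interval left out 0 changed sign. Those were Ccl7 at -0.33 and Lpl at 0.29 with at least 2 accompanying genes, Lpl also at 0.17 with thinned cells and 0.0651 with the rule on thinned cells, and Ctsk at 0.0659 with a Ly6c2 minimum of 1 UMI. Pf4 had -0.29 with a Ly6c2 minimum of 1 UMI, -0.27 with 5, -0.51 with the rule on thinned cells and -0.11 without its 5 highest cells. Cxcl10, whose interval includes 0, lay on the other side of 0 under 8 alternatives, up to 0.66 without its 5 highest cells. The MHC class II median (0.50) was 0.43 with a Ly6c2 minimum of 1, 0.36 with 5, 0.42 with a C1q share below 0.1%, 0.17 with at least 2 accompanying genes, 0.37 as the mean of per-cell CPM, 0.40 with thinned cells and 0.41 with the rule on them. The heat shock median (-0.30) was -0.49 with a C1q share below 0.5% and -0.0572 with at least 2 accompanying genes, and the inflammatory median (-0.24) was -0.40 with a Ly6c2 minimum of 5 and -0.57 with at least 2 accompanying genes. The 198 genes past 1.5-fold higher became 2104 without a minimum beyond 1 UMI and 106 with 100 UMIs. The 389 lower genes became 3128 and 195, and 244 with thinned cells and 231 with the rule on them, which are 8.51% and 8.96% of the 2867 and 2579 genes then reaching 50 UMIs. Against C1q-high cells, the 60 higher genes became 111 with a Ly6c2 minimum of 1, 38 with 5 and 39 with a C1q share below 0.1%, and the 35 lower genes became 99 and 13, and 17 with thinned cells. The cause of these shifts was not tested beyond what fewer cells or UMIs set by construction. Leaving out cells with dendritic UMIs, the haemoglobin-rich cell or the shared barcodes was chosen after seeing the data. With 422 cells and 1 library per group, genes of few UMIs rest on single cells, and counting intervals do not cover differences between mice or libraries.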
